A study of Mus musculus with 12 samples.

Results

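The mitochondrial ribosomal protein genes were examined by RNA-seq in D2A1 and D2.OR, a pair of mammary cancer lines from the mouse. The members were all protein-coding genes whose symbol starts with Mrpl or Mrps followed by a number, which gave 78 genes (49 Mrpl and 29 Mrps) of the 52550 genes quantified and of the 21950 protein-coding genes among them. The 5 other genes with such a symbol are pseudogenes and were left out. All 78 members passed the filter on low counts and were tested with 16823 genes in all. The lowest count of any member in any library was 206.

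The 4 groups were D2A1 and D2.OR, each grown in 2D and in 3D, with 3 replicates per group and 12 libraries. Both lines are established mouse breast cancer lines that came from separately formed tumors of the same type. In the study, D2A1 grows out as metastases and in 3D culture, whereas D2.OR is used as a model of tumor cell dormancy. The 3D culture was on top of growth-factor-reduced Matrigel, a basement membrane gel, and wells of a line were pooled to give enough RNA. Each line stands for its phenotype alone, so the line and the phenotype cannot be told apart. The labels give each replicate number its own batch and sequencing lane and do not say whether replicates were separate cultures. The study states in general that its findings come from biological repeats, and it treats the RNA-seq batches as the replicates. The p-values measure the spread between these libraries, which may be technical in part. In bulk RNA, fewer cells that express a gene and less RNA of that gene per cell cannot be told apart.

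Mitochondria translate a small set of their own mRNAs, all of them for subunits of the respiratory chain and ATP synthase, on a ribosome of their own. Its ribosomal RNAs are made inside the organelle from mitochondrial DNA, but all its proteins are encoded in the nucleus, made in the cytosol and imported. Some of the proteins descend from bacterial ribosomal proteins and others are found only in mitochondria, where they form much of the outer shell of the particle. The symbols do not always give the subunit. Mrps18a and Mrps30 are built into the large subunit, and Mrps36 is now known as a component of the alpha-ketoglutarate dehydrogenase complex, so it was counted as a member but put in no subunit class.

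Library totals ranged from 47589611 to 73325069 expected counts, and the members took 0.306% to 0.382% of the counts in D2A1 libraries and 0.211% to 0.25% in D2.OR libraries. As a check of the cell type, the luminal keratin gene Krt8 was at 2.02, 0.87 and 0.93 TPM in D2A1 in 2D against 855, 700.2 and 1022 TPM in D2.OR. All 5 tested epithelial markers of 6 listed were higher in D2.OR in 2D, and Krt5 was at or near 0 in every library, while Krt18 was detected in both lines. Of the 5 fibroblast markers, 3 were higher in D2.OR in 2D and 4 in 3D. Of the 3 leukocyte markers, Ptprc and Cd3e stayed at 0.16 TPM or less, and Cd68, a macrophage marker, was at 6.84, 16.8 and 32.1 TPM in D2A1 and 5.46, 2.26 and 2.22 TPM in D2.OR in 2D (-2.41, SE 0.62, edgeR adjusted p = 0.0103). In 3D Cd68 was at 10.04, 6.21 and 5.65 TPM in D2A1 and 4.85, 6.75 and 3.54 TPM in D2.OR (-0.55, adjusted p = 0.439). The endothelial markers summed to 0.42 TPM or less per library. The proliferation genes Mki67, Top2a and Pcna summed to 291 ± 66.5 TPM in D2A1 in 2D, 555 ± 134 in D2A1 in 3D, 263 ± 80.9 in D2.OR in 2D and 345 ± 58.3 in D2.OR in 3D (mean ± SD, n = 3). The part of these differences in the results below was not tested.

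The mitochondrial ribosomal protein genes were expressed at a lower total level in D2.OR than in D2A1, in both cultures. TPM is a transcript level scaled for gene length and for library size. The TPM of the 78 members summed to 6858, 6919 and 6351 in the D2A1 2D libraries and to 4902, 4749 and 4945 in the D2.OR 2D libraries. In 3D the sums were 7325, 7038 and 7305 in D2A1 and 4874, 5351 and 5094 in D2.OR. Every D2.OR library lay below every D2A1 library. The group means were 6710 ± 312 in D2A1 2D, 7222 ± 160 in D2A1 3D, 4866 ± 103 in D2.OR 2D and 5107 ± 239 in D2.OR 3D (SD, n = 3). The ratio of D2.OR to D2A1 was 0.725 in 2D (0.715, 0.686 and 0.779 within batches 1, 2 and 3) and 0.707 in 3D (0.665, 0.76 and 0.697). The 3D to 2D ratio was 1.08 in D2A1 and 1.05 in D2.OR. The 49 Mrpl genes and the 29 Mrps genes gave similar ratios of D2.OR to D2A1, at 0.717 and 0.741 in 2D and 0.696 and 0.728 in 3D.

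**Figure D1:**
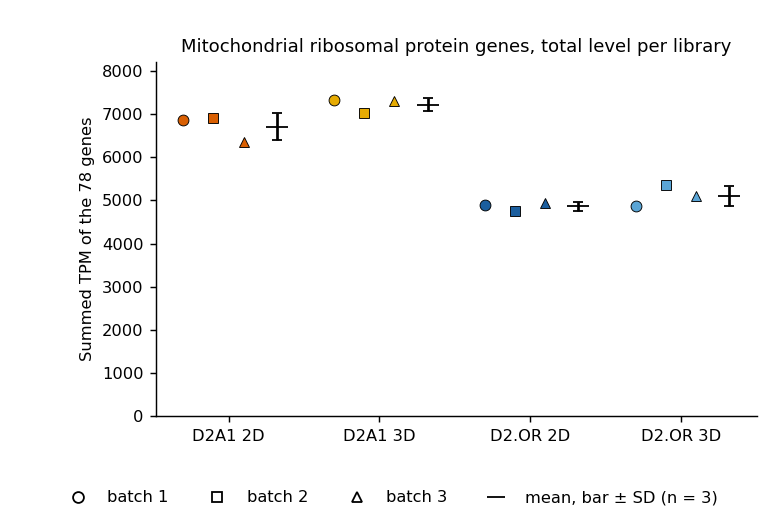
Summed TPM of the 78 mitochondrial ribosomal protein genes (vertical axis, from 0) in each of the 12 libraries, by cell line and culture. Symbols mark batches 1 to 3, and the dash and bar give the group mean ± SD (n = 3). The D2A1 libraries lie between 6351 and 7325 and the D2.OR libraries between 4749 and 5351.

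The single members spanned a wide range of levels. The mean over the 12 libraries ran from 14.6 to 252 TPM with a median of 68.6 TPM. Mrps21, a small subunit protein with a bacterial counterpart, had the highest mean level at 252 TPM, followed by Mrpl52 at 240.3 TPM and Mrpl17, a protein at the exit of the peptide tunnel, at 231 TPM. These 3 genes made up 4.22%, 4.02% and 3.86% of the members' summed level. The lowest were Mrpl1, of the L1 stalk, at 14.6 TPM, Mrpl11, at the base of the other stalk, at 15.4 TPM, and Mrps30 at 17.2 TPM. For Mrps21, the D2A1 libraries held 332, 235 and 302 TPM in 2D and 347, 377 and 346 TPM in 3D. The D2.OR libraries held 177, 174 and 174 TPM in 2D and 178, 193 and 189.6 TPM in 3D. The D2.OR libraries lay below all D2A1 libraries in both cultures for Mrps21.

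In 2D, 44 of the 78 members were lower and 5 were higher in D2.OR than in D2A1. The call was an adjusted p under 0.05 in the edgeR quasi-likelihood test, with the Benjamini-Hochberg adjustment over all 16823 genes and a batch term. Of all genes tested, 24.4% were lower and 25.4% higher, against 56.4% and 6.41% of the members. The median log2 fold change of the members was -0.39 (-0.42, -0.47 and -0.28 within batches 1, 2 and 3), beside a median of 0.00 over all genes tested. The members' fold changes lay between -1.65 and 0.99, and 14 of the 78 were above 0. For 55 members every D2.OR library was below every D2A1 library in TPM, and for 5 every D2.OR library was above, beside 30.7% and 22.1% of all genes. The number of calls fell to 21 lower and 1 higher without batch 2 (10.8% and 14.0% of all genes).

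In 3D, 55 members were lower and 1 was higher in D2.OR (26.1% and 27.7% of all genes tested), and the members' median was -0.57 (-0.58, -0.43 and -0.57 within batches) against 0.00 over all genes. Only 4 of the 78 fold changes were above 0. For 65 members the D2.OR libraries all lay below the D2A1 libraries in TPM and for 1 they all lay above, beside 28.3% and 29.1% of all genes. The 2D and 3D comparisons share no library. Of the 44 members lower in 2D, 43 were also lower in 3D, which is 97.7% of the 2D list and 78.2% of the 3D list. Over all genes tested, the genes lower in both were 72.9% of those lower in 2D and 68.1% of those lower in 3D. Mrps6 was the member called higher in both, and 17 members (21.8%) were called in neither, beside 34.7% of all genes. The difference between these shares was not tested.

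**Figure D2:**
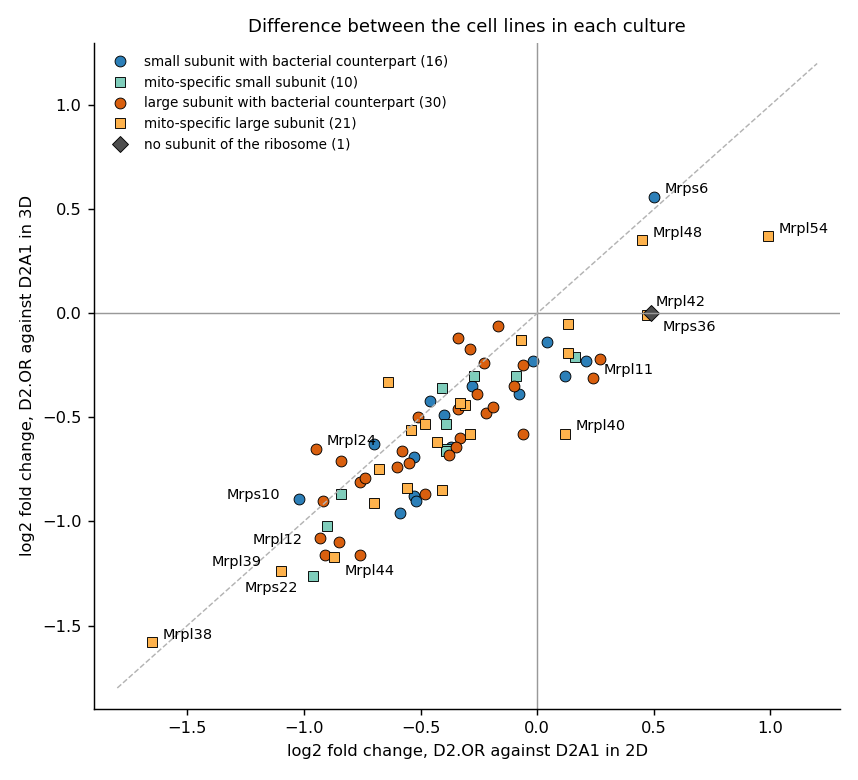
Log2 fold change of each member between D2.OR and D2A1 in 2D (horizontal axis) and in 3D (vertical axis), coloured by subunit class, with equal change on the dashed line. Most of the 78 points lie below 0 on both axes, with Mrpl38 lowest at -1.65 and -1.58, Mrpl54 highest in 2D at 0.99 and Mrps6 highest in 3D at 0.56.

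The fall ran through all 4 subunit classes. Of the 30 large subunit proteins with a bacterial counterpart, 17 were lower in 2D and 23 in 3D, and none was higher. Their medians were -0.37 and -0.62. Of the 21 mitochondria-specific large subunit proteins, 12 were lower and 3 higher in 2D (Mrpl42, Mrpl48 and Mrpl54), and 14 were lower in 3D, with medians of -0.41 and -0.56. Of the 16 small subunit proteins with a bacterial counterpart, 8 were lower in 2D and 11 in 3D, and Mrps6 was higher in both, with medians of -0.38 and -0.46. Of the 10 mitochondria-specific small subunit proteins, 7 were lower in each culture and none was higher, with medians of -0.39 and -0.59. Differences between the classes were not tested. The members called in neither comparison were Mrpl1, Mrpl4, Mrpl11, Mrpl18, Mrpl23, Mrpl27, Mrpl32, Mrpl43, Mrpl46, Mrpl52, Mrps11, Mrps12, Mrps17, Mrps18b, Mrps18c, Mrps27 and Mrps34.

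The upstream sequence of the members was read from the RefSeq promoter windows of GRCm38.p6, each 250 bases before and 50 bases after a RefSeq gene start. These matched 69 of the 78 members. Some starts lay far from the gene start of the annotation used for counting, by 17016 (Mrpl33), -7979 (Mrps24), -3185 (Mrpl35) and 2496 bases (Mrpl36) in genome coordinates. Those windows, with ETS letters in Mrpl33 and YY1 letters in the others, were kept in the shares. Genes for mitochondrial proteins are known to be bound by NRF1 and by ETS factors of the GABP type. The ETS core CCGGAAG stood in 36.2% of the members' windows, against 17.2% of the windows of tested genes and 9.1% of all windows. The NRF1 motif, GCGCA and GCGC with any base between them, stood in 18.8%, 9.8% and 4.8%, and YY1's AAGATGGC in 17.4%, 4.5% and 2.9%. The E-box CACGTG stood in 7.2%, 9.9% and 7.2%, and the NF-Y motif CCAAT in 39.1%, 38.8% and 37.9%. Differences between these shares were not tested. Both strands were searched, and a match says only that the letters occur. The windows had a median GC content of 58.3%, against 60.7% for tested genes.

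Of the 13 members with the NRF1 letters, 10 were lower in D2.OR in 2D and 12 in 3D, with medians of -0.46 and -0.75. Of the 56 without them, 28 were lower and 4 higher in 2D and 37 lower and 1 higher in 3D, with medians of -0.34 and -0.52. For the ETS core the counts were 12 and 16 of 25 with it and 26 and 33 of 44 without it. The YY1 letters went with 4 and 6 of 12 lower, against 34 and 43 of 57. These shares are descriptions and were not tested.

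The windows of 6 members are shown because they span the changes between the lines. The positions are Mrps22 chr9:98601630-98601929, minus strand, Mrpl44 chr1:79775768-79776067, plus strand, Mrpl12 chr11:120484387-120484686, plus strand, Mrpl45 chr11:97315466-97315765, plus strand, Mrpl42 chr10:95501900-95502199, minus strand, and Mrps6 chr16:92058086-92058385, plus strand. Each is written 5′ to 3′ on the gene's strand, and capitals mark the ETS core in Mrps22, the NRF1 letters in Mrpl44, Mrpl12 and Mrpl45 (3 matches), and the YY1 letters in Mrpl42. Mrps6, the member higher in D2.OR in both cultures, held none of the 3 motifs, as did 27 of the 69 matched members in all, Mrps10 and Mrpl24 among them.
Mrps22: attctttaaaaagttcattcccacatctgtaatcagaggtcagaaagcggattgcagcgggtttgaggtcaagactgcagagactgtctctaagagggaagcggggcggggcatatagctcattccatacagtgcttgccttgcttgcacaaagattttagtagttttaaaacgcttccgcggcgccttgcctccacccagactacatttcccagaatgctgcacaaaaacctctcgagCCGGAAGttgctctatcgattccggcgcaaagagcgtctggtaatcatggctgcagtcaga
Mrpl44: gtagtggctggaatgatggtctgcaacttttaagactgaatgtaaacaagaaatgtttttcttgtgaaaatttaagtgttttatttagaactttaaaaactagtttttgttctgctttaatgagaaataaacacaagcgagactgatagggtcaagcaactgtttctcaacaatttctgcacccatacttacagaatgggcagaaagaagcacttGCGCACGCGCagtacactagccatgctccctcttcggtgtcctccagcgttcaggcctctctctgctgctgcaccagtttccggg
Mrpl12: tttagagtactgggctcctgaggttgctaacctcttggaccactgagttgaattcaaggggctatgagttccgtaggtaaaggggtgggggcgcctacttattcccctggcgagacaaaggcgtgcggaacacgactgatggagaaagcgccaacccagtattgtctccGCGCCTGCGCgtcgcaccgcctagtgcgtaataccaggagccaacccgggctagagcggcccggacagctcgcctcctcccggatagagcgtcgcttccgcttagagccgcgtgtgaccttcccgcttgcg
Mrpl45: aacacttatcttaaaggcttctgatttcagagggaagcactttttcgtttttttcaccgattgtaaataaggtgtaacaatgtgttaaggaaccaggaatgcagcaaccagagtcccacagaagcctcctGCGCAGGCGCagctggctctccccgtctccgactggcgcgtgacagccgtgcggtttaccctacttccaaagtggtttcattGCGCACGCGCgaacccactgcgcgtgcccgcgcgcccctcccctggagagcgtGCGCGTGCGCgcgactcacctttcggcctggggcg
Mrpl42: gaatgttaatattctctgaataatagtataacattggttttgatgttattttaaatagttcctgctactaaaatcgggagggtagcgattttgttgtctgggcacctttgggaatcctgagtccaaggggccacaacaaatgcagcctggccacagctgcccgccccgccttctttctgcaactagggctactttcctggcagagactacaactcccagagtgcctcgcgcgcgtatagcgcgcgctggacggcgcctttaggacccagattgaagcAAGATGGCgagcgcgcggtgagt
Mrps6: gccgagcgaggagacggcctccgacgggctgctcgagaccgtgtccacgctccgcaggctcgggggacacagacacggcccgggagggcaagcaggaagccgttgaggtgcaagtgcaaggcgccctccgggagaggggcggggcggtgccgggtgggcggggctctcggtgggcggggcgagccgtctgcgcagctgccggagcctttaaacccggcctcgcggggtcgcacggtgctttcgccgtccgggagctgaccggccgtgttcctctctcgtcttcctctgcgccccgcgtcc

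Mrpl38 fell most in both cultures. It encodes a mitochondria-specific protein of the central protuberance, the crest of the large subunit that faces the small subunit (ENSMUSG00000020775.13, chromosome 11, 116131817 to 116138868, minus strand, GRCm38). Its level in 2D was 109.6, 136 and 138 TPM in D2A1 and 41.0, 31.8 and 42.9 TPM in D2.OR. Its level in 3D was 131, 111 and 119.99 TPM in D2A1 and 38.6, 45.8 and 46.9 TPM in D2.OR. The log2 fold change between D2.OR and D2A1 was -1.65 (SE 0.13, edgeR adjusted p = 1.68e-05) in 2D and -1.58 (SE 0.13, edgeR adjusted p = 1.93e-05) in 3D, which is 3.13-fold and 2.99-fold lower. No D2.OR library reached the lowest D2A1 library.

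Mrpl39, a mitochondria-specific large subunit protein, followed in 2D (ENSMUSG00000022889.7, chromosome 16, 84717576 to 84735742, minus strand). In 2D the 3 D2A1 libraries held 40.7, 43.4 and 44.2 TPM and the 3 D2.OR libraries 18.0, 16.6 and 19.0 TPM. In 3D the values were 40.4, 41.3 and 41.4 TPM in D2A1 and 17.0, 19.2 and 18.3 TPM in D2.OR. The difference was -1.10 (SE 0.09, edgeR adjusted p = 2.1e-05) in 2D and -1.24 (SE 0.09, edgeR adjusted p = 9.82e-06) in 3D. The groups did not overlap, and the 2 cultures of each line were close together.

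Mrps22, a mitochondria-specific small subunit protein whose human counterpart is a mitochondrial disease gene, had the ETS core in its window (ENSMUSG00000032459.9, chromosome 9, 98588730 to 98601660, minus strand). The D2A1 libraries held 50.5, 56.4 and 47.2 TPM in 2D and 59.8, 58.7 and 57.9 TPM in 3D. The D2.OR libraries held 22.8, 21.3 and 28.3 TPM in 2D and 22.6, 26.2 and 26.8 TPM in 3D. The difference was -0.96 (SE 0.13, edgeR adjusted p = 0.000385) in 2D and -1.26 (SE 0.13, edgeR adjusted p = 7.86e-05) in 3D, with no overlap between the lines.

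Mrps10, the counterpart of a bacterial protein of the small subunit head, was at 76.5, 110.3 and 85.4 TPM in D2A1 and 34.7, 39.8 and 43.8 TPM in D2.OR in 2D. Its difference was -1.02 (SE 0.11, edgeR adjusted p = 8.39e-05) in 2D and -0.89 (SE 0.11, edgeR adjusted p = 0.000166) in 3D. The D2A1 2D library of batch 2 was the highest, and the 2 lines stayed apart.

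Mrpl24, a protein at the tunnel exit, was at 115, 181 and 156 TPM in D2A1 and 74.0, 67.8 and 63.6 TPM in D2.OR in 2D. Its difference was -0.95 (SE 0.15, edgeR adjusted p = 0.000756) in 2D and -0.65 (SE 0.15, edgeR adjusted p = 0.00491) in 3D. An opposite-strand gene, Rrnad1, overlaps it by 1072 bases, and the strand setting of the counting is not stated, so reads of the 2 genes may not be separated there.

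In 3D, Mrpl44 and Mrpl12 were also among the 5 largest falls. Mrpl44 encodes a large subunit protein related to RNase III (ENSMUSG00000026248.9, chromosome 1, 79776018 to 79781445, plus strand). Its level in 2D was 37.4, 44.5 and 38.5 TPM in D2A1 and 20.1, 19.6 and 20.9 TPM in D2.OR. Its level in 3D was 42.3, 40.9 and 42.1 TPM in D2A1 and 18.2, 20.5 and 18.9 TPM in D2.OR. Its difference was -0.87 (SE 0.10, edgeR adjusted p = 0.000115) in 2D and -1.17 (SE 0.10, edgeR adjusted p = 1.98e-05) in 3D, with no overlap. Mrpl12 encodes the flexible stalk protein that contacts translation factors (ENSMUSG00000039640.7, chromosome 11, 120484613 to 120489065, plus strand). In 2D the 3 D2A1 libraries held 147, 141 and 123 TPM and the 3 D2.OR libraries 64.1, 60.9 and 75.6 TPM. In 3D the values were 173, 189 and 214 TPM in D2A1 and 71.1, 107 and 89.0 TPM in D2.OR. Its difference was -0.91 (SE 0.16, edgeR adjusted p = 0.00171) in 2D and -1.16 (SE 0.16, edgeR adjusted p = 0.00039) in 3D, and the highest D2.OR library, batch 2 in 3D, stayed below the lowest D2A1 library. Under the 24 alternatives, the falls of Mrpl38, Mrpl39, Mrps22 and Mrpl12 in both cultures, of Mrps10 and Mrpl24 in 2D and of Mrpl44 in 3D passed the threshold each time. The falls of Mrps10 and Mrpl24 in 3D and of Mrpl44 in 2D were not run under the alternatives.

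**Figure D3:**
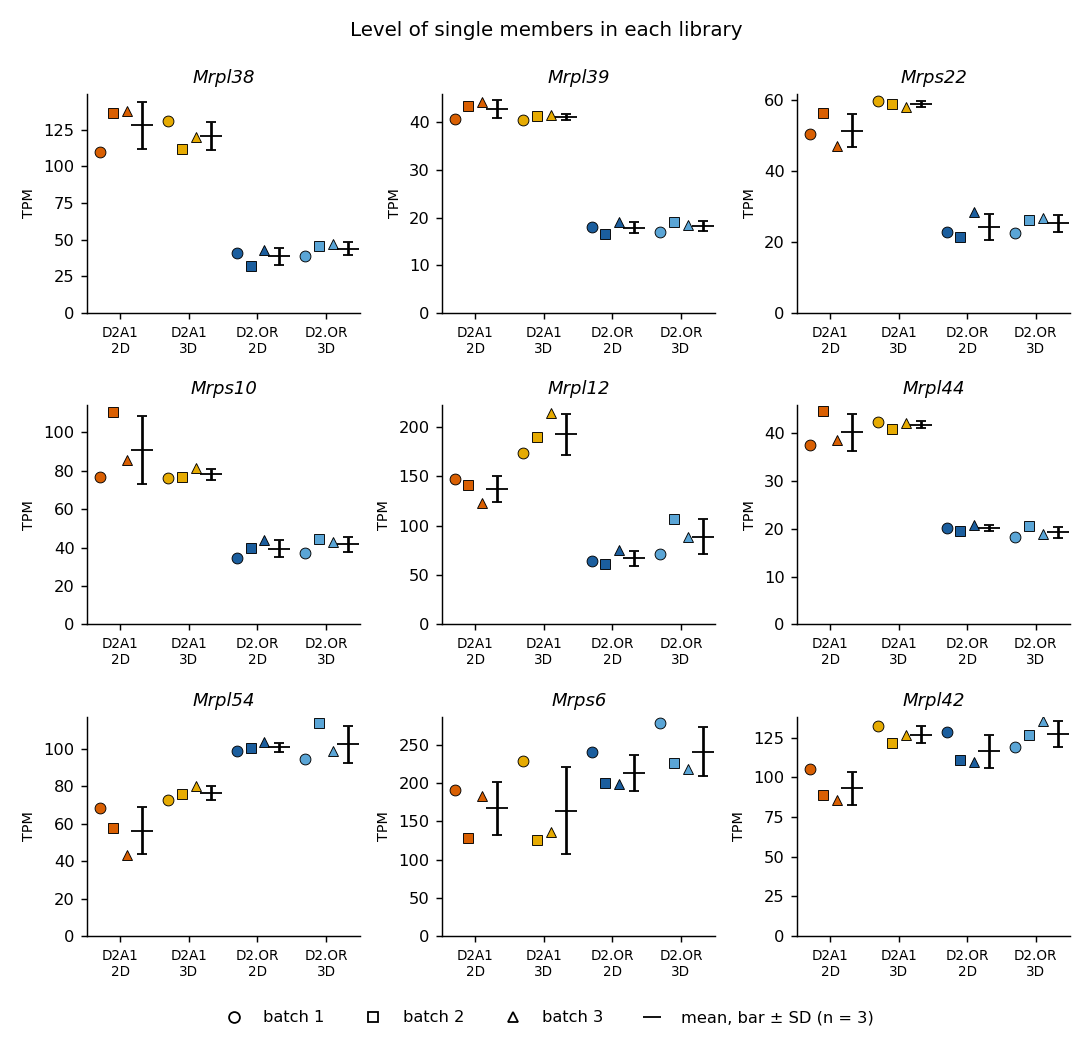
TPM of 9 members in each library (vertical axes from 0, own scale per gene), by cell line and culture. Symbols mark batches 1 to 3, and the dash and bar give mean ± SD (n = 3). The first 6 genes are lower in D2.OR with no overlap between the lines in either culture. Mrpl54 is higher in D2.OR in 2D, where the call was made, and its 3D libraries also do not overlap, although that difference did not pass the threshold. Mrpl42 is higher in 3D than in 2D in D2A1.

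Of the 5 members higher in D2.OR in 2D, 3 were mitochondria-specific large subunit proteins. Mrpl54, a mitochondria-specific large subunit protein (ENSMUSG00000034932.4, chromosome 10, 81264713 to 81266934, minus strand), was at 68.4, 57.6 and 43.1 TPM in D2A1 and 98.9, 100.3 and 104 TPM in D2.OR in 2D. In 3D it was at 72.8, 76.2 and 80.1 and 94.5, 114 and 98.9 TPM. The difference was 0.99 (SE 0.17, edgeR adjusted p = 0.00135) in 2D, 1.99-fold higher, and 0.37 (SE 0.17, edgeR adjusted p = 0.0899) in 3D. The libraries of the 2 lines did not overlap in either culture, although the 3D difference did not pass the threshold.

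Mrps6, a small subunit protein with a bacterial counterpart (ENSMUSG00000039680.9, chromosome 16, 92058270 to 92112227, plus strand), was higher in D2.OR in both cultures. The D2A1 libraries held 191, 128 and 183 TPM in 2D and 229, 126 and 136 TPM in 3D. The D2.OR libraries held 241, 201 and 199 TPM in 2D and 279, 227 and 219 TPM in 3D. The difference was 0.50 (SE 0.14, edgeR adjusted p = 0.0156) in 2D and 0.56 (SE 0.14, edgeR adjusted p = 0.00818) in 3D. In 3D the lines overlapped, since the D2A1 library of batch 1 was above the D2.OR libraries of batches 2 and 3. Slc5a3 lies within the same gene span on the same strand, with 29152 shared bases, so the share of its reads in the values is uncertain. The 2D call was lost without batch 2 (adjusted p = 0.173), without the D2A1 2D library of batch 2 (0.0755) or the D2.OR 2D library of batch 2 (0.0713), and without the batch term (0.0908). It was also lost under a scaling by the library total (0.0768) and with limma on log2(TPM + 1) (0.0623) or log2(TPM + 0.1) (0.0592). The 3D call was lost without batch 2 (0.0975) or batch 3 (0.0557) and without the batch term (0.0662).

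The other 3 members higher in 2D were Mrps36 at 0.49 (SE 0.14, edgeR adjusted p = 0.0147), Mrpl42, a mitochondria-specific large subunit protein, at 0.47 (SE 0.12, edgeR adjusted p = 0.00875) and Mrpl48, of the central protuberance, at 0.45 (SE 0.14, edgeR adjusted p = 0.0222). In 3D their differences were 0.00, -0.01 and 0.35, with adjusted p of 0.997, 0.952 and 0.0508. Mrps36 was at 65.4, 47.9 and 51.2 TPM in D2A1 in 2D and at 67.9, 68.1 and 70.2 TPM in D2.OR. Leaving out batch 2 or batch 3 ended all 3 calls in 2D, with adjusted p of 0.171 and 0.145 for Mrps36, 0.113 and 0.0528 for Mrpl42, and 0.135 and 0.112 for Mrpl48. Single libraries did so for Mrps36 (D2A1 batches 2 and 3 and D2.OR batch 3) and for Mrpl48 (D2A1 batches 2 and 3 and D2.OR batches 1 and 2), with adjusted p between 0.0514 and 0.0882. Under a scaling by the library total alone, none of the 3 passed. With the compared libraries alone, Mrps36 (adjusted p = 0.0646) and Mrpl48 (0.0568) did not pass, and Mrpl48 was at 0.24 and 0.25 with limma on log2(TPM + 1) and log2(TPM + 0.1) (adjusted p = 0.155 and 0.151).

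Of the 4 stalk proteins, Mrpl12 and Mrpl10 were lower in both cultures. Mrpl10, the stalk base that carries Mrpl12, differed by -0.33 (adjusted p = 0.0151) in 2D and -0.60 (adjusted p = 0.000602) in 3D. Mrpl1 was at -0.06 and -0.25 and Mrpl11 at 0.24 and -0.31, none past the threshold. Under a scaling by the library total, Mrpl1 passed in 3D (-0.35, adjusted p = 0.0359). Without the D2A1 2D library of batch 1, Mrpl11 passed as higher in 2D (0.44, adjusted p = 0.00456) and as lower in 3D (-0.32, adjusted p = 0.00837). The 2D call of Mrpl10 was lost without batch 2 (adjusted p = 0.0983), without batch 3 (0.0816) and without the D2.OR 2D library of batch 3 (0.0556). It was also lost without the filter on low counts (0.0517) and with the compared libraries alone (0.0845).

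Of the 6 tunnel exit proteins, 4 were lower in 2D and 5 in 3D. Mrpl45, which holds the ribosome to the inner membrane, was at 49.0, 39.6 and 43.9 TPM in D2A1 and 33.6, 27.2 and 29.3 TPM in D2.OR in 2D. Its difference was -0.41 (SE 0.12, edgeR adjusted p = 0.0227) in 2D and -0.85 (SE 0.13, edgeR adjusted p = 0.000476) in 3D. The 2D call did not hold without batch 2 (adjusted p = 0.168) or batch 3 (0.102), or without the D2A1 2D library of batch 1 (0.073) or 2 (0.0503) or the D2.OR 2D library of batch 2 (0.0839) or 3 (0.108). Of the 5 central protuberance proteins, Mrpl38 was lower and Mrpl48 higher in 2D, and 2 were lower in 3D.

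Among the 3 paralogs of bacterial S18, the large subunit copy was called in 2D and the small subunit copies were not. Mrps18a was at 104, 146 and 109.8 TPM in D2A1 and 76.0, 62.0 and 69.4 TPM in D2.OR in 2D, a difference of -0.64 (SE 0.14, edgeR adjusted p = 0.00514). In 3D it differed by -0.33 (adjusted p = 0.0776). Mrps18b differed by -0.09 (adjusted p = 0.72) in 2D and -0.30 (adjusted p = 0.186) in 3D, and Mrps18c by -0.02 (adjusted p = 0.872) and -0.23 (adjusted p = 0.0531). In 3D, Mrps18a passed in 4 of 24 alternatives, Mrps18b in 1 and Mrps18c in 6. Leaving out the D2A1 2D library of batch 1 gave calls for Mrps18a (adjusted p = 0.0402) and Mrps18c (0.0326), that of batch 2 for Mrps18a (0.0198) and that of batch 3 for Mrps18c (0.0432). The difference between the paralogs was not tested, and the 2D call of Mrps18a was lost without batch 2 (-0.42, adjusted p = 0.0685).

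Mrps12, of the decoding center, differed by -0.08 (adjusted p = 0.705) in 2D and -0.39 (adjusted p = 0.065) in 3D, short of the threshold. The 3D difference of Mrps12 passed in 8 of 24 alternatives, among them those without batch 1 (adjusted p = 0.0336) and without the batch 1 library of D2A1 in 2D (0.0172) or 3D (0.0468) or the D2A1 2D library of batch 2 (0.0461). Mrps30, of the large subunit, was lower, at -0.33 (adjusted p = 0.0172) in 2D and -0.43 (adjusted p = 0.00422) in 3D. Its level ran from 13.1 to 15.3 TPM in D2.OR and from 18.7 to 20.9 TPM in D2A1, so the lines did not overlap. The 2D call of Mrps30 was lost without batch 2 (adjusted p = 0.24), without batch 3 (0.0659), and without the batch 2 library of D2A1 (0.067) or D2.OR (0.0972). It was also lost without the filter on low counts (0.07) and with the compared libraries alone (0.124). The 3D call of Mrps30 was lost without batch 3 (0.0601).

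Few members were called between 2D and 3D. In D2A1 the median log2 fold change from 2D to 3D was 0.23 (0.10, 0.15 and 0.38 within batches 1, 2 and 3) against 0.00 over all genes, and 63 of the 78 members were above 0. In 43 members the change was above 0 in all 3 batches, beside 23.8% of all genes. Mrpl42 and Mrps24 passed the threshold as higher (1.37% of all genes tested were higher), and no member was called lower (2.12%). An unadjusted p under 0.05 was reached by 31 members, beside 5282 of the 16823 genes tested. Mrpl42 went from 105, 89.0 and 85.8 TPM in 2D to 133, 122 and 127 TPM in 3D, by 0.55 (SE 0.12, edgeR adjusted p = 0.0453). Mrps24, of the small subunit near the mRNA entry, went from 82.2, 93.4 and 87.2 to 108, 105 and 114 TPM, by 0.43 (SE 0.09, edgeR adjusted p = 0.0472), with Urgcp on the same strand over 2264 bases of it. In both genes each 3D library lay above each 2D library.

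The number of calls in D2A1 depended on the D2A1 2D library of batch 1. Without that library 31 members were higher and 5 lower (beside 15.3% and 15.0% of all genes), and without batch 1 the counts were 28 and 5 (17.4% and 18.9%). DESeq2's likelihood-ratio test called 20 higher and 0 lower (8.79% and 11.4%). Without the batch term, or with the 6 libraries of D2A1 alone, no member was called. When the batch was not modelled, the unadjusted p was below 0.05 in 36 members, given here without the count over all genes. The calls of both Mrpl42 and Mrps24 were also lost without batch 2 or batch 3 (adjusted p of 0.517 and 0.537 for each gene), without any single batch 2 or 3 library of D2A1 (0.165 to 0.233), and without any single batch 2 or 3 library of D2.OR (0.0667 to 0.0826). The call of Mrps24 was lost as well without the batch 1 library of D2.OR in 2D (0.052) or 3D (0.0553) and without the filter on low counts (0.0658). With limma on log2(TPM + 1) and log2(TPM + 0.1) it was also lost (0.0511 and 0.0503). The median change of the proliferation genes was 0.15 in batch 1 and 1.59 in each of batches 2 and 3, beside 0.10, 0.15 and 0.38 for the members, and their part was not tested.

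Mrpl28, a large subunit protein, was just short of the threshold in D2A1, at 0.40 (adjusted p = 0.0512). Mrpl40, given under the results flagged for a closer look, was also close to it. Among the members below 0, the smallest p belonged to Mrpl24 at -0.31 (adjusted p = 0.183), Mrps18a at -0.38 (adjusted p = 0.112) and Mrps9 at -0.26 (adjusted p = 0.151). Without the D2A1 2D library of batch 1, Mrpl28, Mrpl24, Mrps18a and Mrps9 passed, at 0.49, -0.49, -0.51 and -0.36. Mrps18a went from 104, 146 and 109.8 TPM to 94.8, 74.96 and 86.2 TPM and its groups did not overlap.

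In D2.OR no member was called between 3D and 2D, where 1.62% of all genes were called in either direction. At an unadjusted p under 0.05 there were 2 members, beside 2966 of the 16823 genes tested. DESeq2 called 1 member, Mrpl30, as lower (adjusted p = 0.0303, beside 3.72% of all genes). The median change was 0.00 (-0.17, 0.14 and 0.03 within batches), and 39 of the 78 members were above 0. The smallest p among those above 0 belonged to Mrpl41 (0.31, adjusted p = 0.185), Mrpl12 (0.34, adjusted p = 0.315) and Mrpl57 (0.23, adjusted p = 0.328). Below 0 they were Mrpl30, a large subunit protein, from 157, 134 and 137 to 109.9, 113 and 117 TPM (-0.35, adjusted p = 0.13), Mrps18c (-0.20, adjusted p = 0.288) and Mrps9 (-0.22, adjusted p = 0.348).

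**Figure D4:**
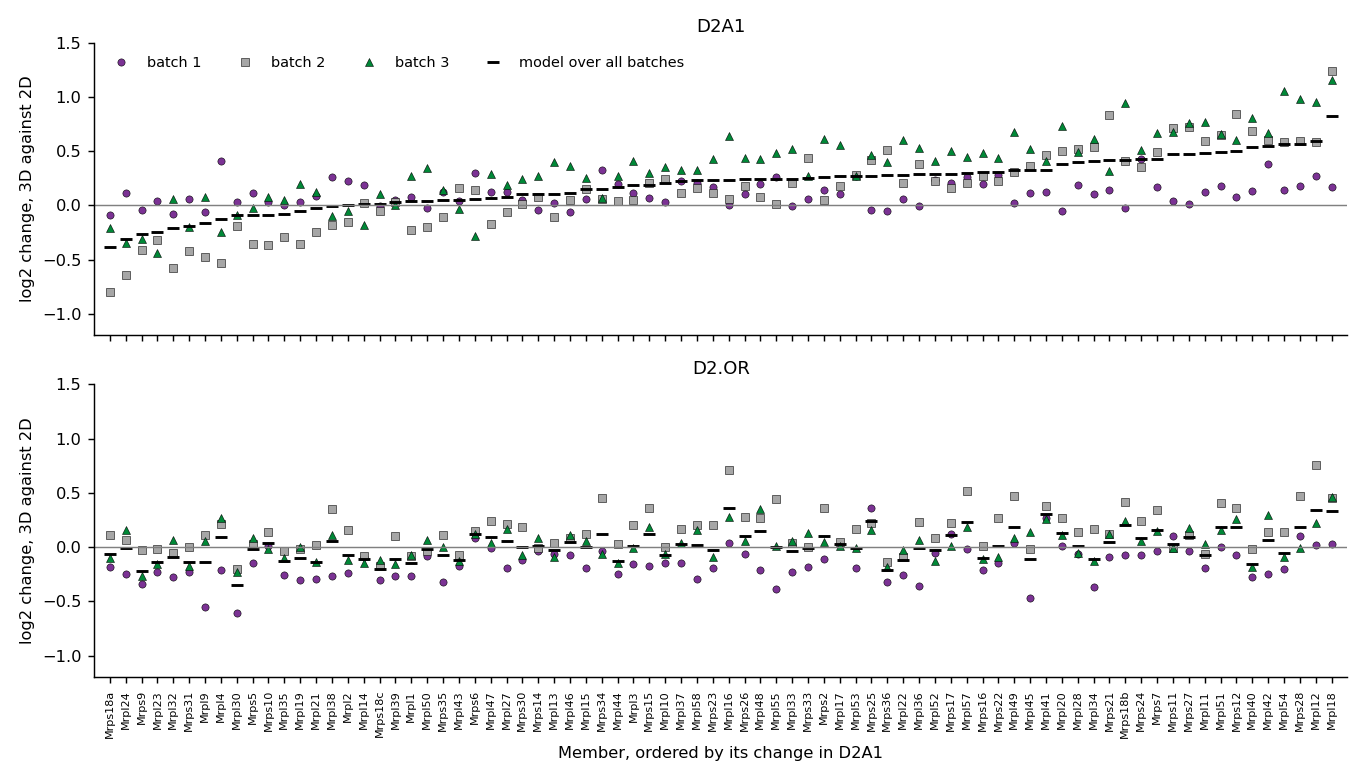
Log2 change from 2D to 3D of each of the 78 members in D2A1 (top) and D2.OR (bottom), ordered by the change in D2A1. Points are the log2 CPM differences within batches 1, 2 and 3 and dashes the fold change of the model over all batches. The batch medians are 0.10, 0.15 and 0.38 in D2A1 and -0.17, 0.14 and 0.03 in D2.OR.

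The interaction term asks whether the 3D effect differed between the lines, as the change in D2.OR minus the change in D2A1. No member passed (0.0238% of all genes did), and 11 had an unadjusted p under 0.05, beside 2999 of the 16823 genes tested. DESeq2 called 1, Mrpl40, as lower (2.16% of all genes were lower and 3.18% higher by DESeq2). The members' median was -0.18 (-0.27, 0.04 and -0.30 within batches), so the batches did not share a direction, and 31 members were below 0 in all 3 batches beside 20.9% of all genes. Mrpl40, of the central protuberance, went from 49.5, 46.9 and 41.6 to 54.0, 68.4 and 68.4 TPM in D2A1 and from 41.0, 47.2 and 52.9 to 38.8, 46.8 and 46.9 TPM in D2.OR. Its interaction was -0.70 (SE 0.19, edgeR adjusted p = 0.152). The next were Mrpl28 (-0.38, adjusted p = 0.198) and Mrpl42 (-0.48, adjusted p = 0.198) below 0, and Mrpl24 (0.30, adjusted p = 0.469), Mrps18a (0.32, adjusted p = 0.433) and Mrpl4 (0.22, adjusted p = 0.638) above 0. Without the D2A1 2D library of batch 1, 11 members were called lower and 0 higher (8.08% and 6.41% of all genes), and without batch 1 the counts were 7 lower and 2 higher (8.64% and 9.17% of all genes).

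Few members were called between batches. Batch 1 differed from the mean of batches 2 and 3 in 2 members, beside 13.3% of all genes tested, and the median was -0.02. Mrps6 was higher in batch 1 by 0.40 (SE 0.10, edgeR adjusted p = 0.0344), and Mrpl52 was lower, at -0.34 (SE 0.07, edgeR adjusted p = 0.0165). In each group the batch 1 library had the highest Mrps6 value and the lowest Mrpl52 value, such as 185, 244 and 263 TPM for Mrpl52 in D2.OR in 2D. Mrps14 (0.21, adjusted p = 0.0641) and Mrpl30 (0.13, adjusted p = 0.3) above 0, and Mrps10 (-0.25, adjusted p = 0.0736) and Mrpl58 (-0.24, adjusted p = 0.0999), a release factor built into the large subunit, below 0, came next. The call of Mrps6 was lost without the batch 1 library of D2A1 3D, D2.OR 2D or D2.OR 3D, the batch 2 library of either D2A1 culture, or the batch 3 library of D2A1 3D or either D2.OR culture (adjusted p from 0.053 to 0.128), and that of Mrpl52 without the batch 1 library of D2.OR in 2D (0.0527) or 3D (0.0611).

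The other genes of mitochondrial translation were also mostly lower in D2.OR where they were called. For the counts below, 24.4% of all genes tested were lower and 25.4% higher in 2D, and 26.1% and 27.7% in 3D. The median over all genes was 0.00 in both cultures. Of the 5 ribosome subunits with other symbols, 3 were lower in 2D and 4 in 3D, with medians of -0.45 and -0.86. Dap3, a GTP-binding protein of the small subunit, was at 153, 194 and 185 TPM in D2A1 and 75.8, 70.6 and 67.9 TPM in D2.OR in 2D (-1.14, SE 0.10, edgeR adjusted p = 2.97e-05). Of 14 translation factors, 7 were lower and 1 higher in each culture, with Gatb, of the enzyme that completes glutaminyl-tRNA, at -1.30 (adjusted p = 6.53e-05) in 2D and Guf1, the counterpart of bacterial LepA, at -1.03 (adjusted p = 0.000147). Of 25 assembly factors, 14 were lower and 3 higher in each culture, with the GTPases Mtg1 at -1.17 (adjusted p = 0.000448) and Noa1 at -0.74 (adjusted p = 0.00132) in 2D. Of 17 mitochondrial aminoacyl-tRNA synthetases, 10 were lower in each culture and 2 (2D) or 3 (3D) higher, and Rars2, for arginine, fell most, from 97.5 ± 7.97 to 15.5 ± 1.54 TPM in 2D (-2.44, SE 0.13, edgeR adjusted p = 1.24e-06).

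No rRNA or mRNA of the mitochondrial genome was called lower in D2.OR. The rRNAs mt-Rnr1 and mt-Rnr2, which form the core of the same ribosome, were higher in D2.OR in both cultures. In 2D, mt-Rnr2 was at 206, 209 and 249.96 TPM in D2A1 and 555, 460.1 and 416 TPM in D2.OR (1.25, SE 0.22, edgeR adjusted p = 0.00136), and mt-Rnr1 differed by 1.13 (SE 0.20, edgeR adjusted p = 0.00172). How RNA was selected for the libraries is not given in the sources used here, and the share of rRNA it left was not tested. Of the 13 mitochondrial mRNAs, 1 was called in 2D, mt-Co3 as higher (0.53, adjusted p = 0.0133), and none in 3D, with medians of -0.04 and 0.15. At an unadjusted p under 0.05 there were 2 in 3D, beside 10077 of the 16823 genes tested. The ratio of their summed TPM, D2.OR to D2A1, was 0.828 in 2D (0.942, 0.877 and 0.686 within batches 1, 2 and 3). In 3D it was 1.07 (0.951, 1.16 and 1.09).

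**Figure D5:**
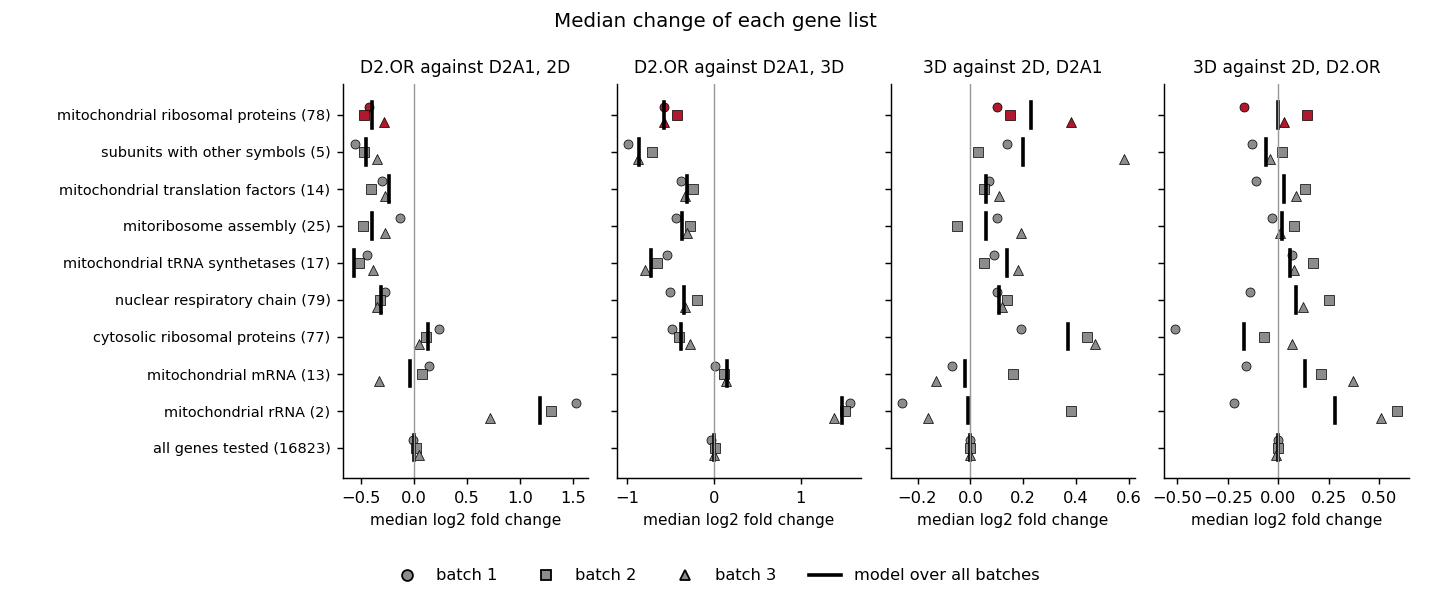
Median log2 fold change of each gene list (number of tested genes in parentheses) in 4 comparisons, with a horizontal scale of its own in each panel. Points are the medians within batches 1 to 3 and the bar is the median from the model over all batches. The mitochondrial ribosomal proteins are at -0.39 and -0.57 between the lines, the cytosolic ribosomal proteins at 0.13 and -0.38 and the mitochondrial rRNAs at 1.19 and 1.48.

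The nuclear genes of the respiratory chain were also mostly lower in D2.OR where they were called. Of 79 tested, 39 were lower (49.4%) and 7 higher (8.86%) in D2.OR in 2D, beside 24.4% and 25.4% of all genes. In 3D, 43 were lower (54.4%) and 6 higher (7.59%), beside 26.1% and 27.7%. The medians were -0.31 in 2D and -0.34 in 3D. Of 77 cytosolic ribosomal protein genes tested, 2 were lower (2.6%) and 18 higher (23.4%) in D2.OR in 2D (median 0.13). Of all genes tested, 24.4% were lower and 25.4% higher in 2D, so the cytosolic share called higher was near that of all genes. Among the 78 members, 44 were lower and 5 higher. In 3D, 42 cytosolic genes were lower (54.5%) and 2 higher (2.6%), with a median of -0.38, beside 26.1% and 27.7% of all genes. From 2D to 3D in D2A1 the medians were 0.37 for the cytosolic and 0.23 for the mitochondrial ribosomal protein genes. The difference between the lists was not tested.

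Among 12 regulators of mitochondrial biogenesis, 2 were higher (16.7%) and 3 lower (25%) in D2.OR in each culture, beside 25.4% and 24.4% of all genes tested in 2D and 27.7% and 26.1% in 3D. Myc rose from 37.6, 53.2 and 23.9 TPM in D2A1 to 138, 104 and 103 TPM in D2.OR in 2D (1.71, SE 0.27, edgeR adjusted p = 0.00073). Ppargc1a, the coactivator PGC-1alpha, fell from 8.58, 8.57 and 9.91 to 4.14, 0.87 and 0.82 TPM (-2.54, SE 0.44, edgeR adjusted p = 0.00132). Nrf1 was lower in D2.OR, with a log2 fold change of -0.27 (adjusted p = 0.0388) in 2D and -0.39 (adjusted p = 0.00625) in 3D. Gabpa, an ETS factor, was at -0.11 (adjusted p = 0.309) in 2D and lower in 3D at -0.28 (adjusted p = 0.0205).

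Position in the genome was examined because the study reports both lines to be polyploid, D2.OR mostly triploid and D2A1 mostly hypotetraploid. The members lie on 17 chromosomes. Their median fold change was below the median of all tested genes of the same chromosome on 14 chromosomes in 2D and on 17 in 3D, and on all 8 chromosomes that hold at least 5 members in both cultures. The largest group, 11 members on chromosome 11, had 9 lower in 2D and 10 in 3D, with medians of -0.53 and -0.88. All genes of that chromosome were at -0.26 and -0.27, and 38.6% of them were lower in 2D and 40.6% in 3D. On chromosome 7, where all genes were at 0.20 in both cultures, the 6 members were at -0.08 and -0.18, with 1 higher in 2D and 1 lower in 3D. Of all genes on chromosome 7, 14.9% were lower in 2D and 15.7% in 3D. The members lay above or at the genes of their chromosome in 2D on chromosomes 5, 10 and 16. Mrpl54 and Mrpl42, both called higher in 2D, are the 2 members on chromosome 10, at a median of 0.73 where all genes were at 0.56 and 8.0% were lower. On chromosome 16 the 3 members Mrpl39, Mrpl40 and Mrps6 had a median of 0.12 against -0.28. Chromosome copy number was not measured in these libraries.

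The counting may mix reads where genes overlap. The annotation of the files places another gene over 41 of the 78 members, a protein-coding one over 25, and a gene on the same strand over 13. Among the 37 members with no overlap, 20 were lower and 3 higher in D2.OR in 2D and 25 lower and 0 higher in 3D, with medians of -0.39 and -0.53, close to those of all 78. The 5 pseudogenes had mean levels of 7.21 TPM or less, and the lowest member mean was 14.6 TPM.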

How the data were processed

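The 12 RNA libraries of both lines, from 2D and 3D culture, were sequenced on Illumina machines. Per the labels and methods, the authors used FastQC 0.11.4, Trimmomatic 0.32, STAR 2.5.3 and RSEM 1.3.0 with GRCm38 and GENCODE annotation, and deposited expected counts, TPM and FPKM per gene. RSEM splits reads that fit several genes. The expected counts deposited by the authors are not normalized. They were rounded here, and 10.7% to 11.8% of values per library were not whole. The deposited TPM, scaled by the authors for length and library, give levels and keep no depth. The deposited FPKM were not used. The strand setting and RNA selection are not given in the sources used here.

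Groups came from the sample labels. Differences were tested in R 4.3.3 with edgeR 4.0.16 (TMM, filterByExpr, quasi-likelihood, 4 groups plus batch, all 12 libraries), with p-values adjusted over 16823 genes. The common coefficient of variation was 21.2%. Within-batch values are differences of log2 CPM with a prior count of 2. The labels give the batch as the replicate number and the study's model includes it, so replicates were paired. As a check, deviations from group means correlated at 0.076 to 0.512 (median 0.267) in 18 pairs of the same number. In 36 other pairs they correlated at -0.432 to 0.296 (median -0.195). Deviations sum to 0 within a group, so the values of the other pairs are no separate evidence. The tests were tried on simulated counts.

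The named members are 11 fixed by role, the 5 largest rises and falls past the threshold in each line comparison with 1 direction in all 3 batches, the 3 smallest p-values in each direction of the other comparisons, and the 3 highest and lowest levels. Of the other lists, the 2 genes with the smallest p in 2D and in the interaction could be named. The members and lists were chosen with earlier results of these data known. Nrf1, Gabpa, Krt18, Krt5, Ptprc, Cd3e and the members listed as not called were named after their values were seen. Alternatives were no batch term, DESeq2 1.42.0, limma 3.58.1 on log2(TPM + 1) and log2(TPM + 0.1), other scalings and filters, the compared libraries alone, and each batch or library left out. No column of the series table was without a sample. Promoters were searched in Python 3.11.15.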

Additional observations from a re-analysis of the deposited data

Results flagged for a closer look

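Mrpl40, a large subunit protein of the central protuberance, had a log2 difference between 3D and 2D above 0 in each of the 3 batches of D2A1 (0.13, 0.69 and 0.81) and below 0 in each of the 3 batches of D2.OR (-0.28, -0.02 and -0.18). Neither change passed the threshold within its line, at 0.54 (edgeR adjusted p = 0.0557) in D2A1 and -0.16 (adjusted p = 0.574) in D2.OR. The interaction was -0.70 on the log2 scale (SE 0.19) and did not pass the threshold in the edgeR quasi-likelihood test (adjusted p = 0.152). It passed with DESeq2 (-0.68, adjusted p = 0.0271), without batch 1 (-0.85, adjusted p = 0.0125) and without the D2A1 2D library of batch 1 (-0.87, adjusted p = 0.00952). The predicted gene Gm28539 overlaps Mrpl40 on the opposite strand over 4750 bases, and its part in the values was not tested.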

How the results depend on the processing

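The lower level of the members in D2.OR kept its direction under all alternatives. The number called ranged from 22 to 56 in 2D and from 39 to 64 in 3D when a batch or library was left out, with 22 without batch 2. A scaling by library total shifted the median of all genes by -0.17 in 2D and -0.10 in 3D and gave member medians of -0.56 and -0.67, and limma on log2(TPM + 1) and log2(TPM + 0.1) gave -0.51 and -0.52 in 2D. In D2A1 from 2D to 3D, leaving out a batch or library gave 0 to 36 calls. The fit without the batch block gave 0, the 6 compared libraries alone 0, limma on log2(TPM + 1) 1, a minimum of 10 counts 4 and DESeq2 20. In D2.OR the range was 0 to 1 and DESeq2 called 1. For the interaction it was 0 to 11 and DESeq2 called 1, and between batches 0 to 4 and 7. Without the replicate block the counts were 48 (2D), 55 (3D) and 0 (D2.OR, D2A1 and interaction), so it changed only the D2A1 count by over 1.5 times. Without the member of highest level the summed TPM was 6866 in D2A1 3D and 4691 in D2.OR 2D. Some members that were not called changed sign when a batch or library was left out. These were Mrpl4 in the interaction (-0.05 to 0.63, where 0.63, without batch 1, passed at an adjusted p of 0.0289), Mrps12 (-0.22 to 0.12), Mrps18b (-0.30 to 0.17), Mrps18c (-0.06 to 0.01, and 0.01 with at least 10 counts) and Mrpl1 (-0.16 to 0.05) in 2D, and Mrps36 in 3D (-0.05 to 0.09, -0.00 without the block or the filter, -0.10 by library total). Apart from the counts set by construction, the cause was not tested. Of 1404 values for named members, 1237 kept direction and side of the threshold, 88 lost a call, 53 gained one and 26 changed sign.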
